A study of Mus musculus with 12 samples.

Results

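The 10 genes described here move iron into the hepatocyte, store it, release it and set the hormone that controls its release. They were taken by name from the liver count table of a mouse study and are *Hamp*, *Hfe*, *Tfr2*, *Trf*, *Tfrc*, *Slc39a14*, *Fth1*, *Ftl1*, *Ncoa4* and *Slc40a1*, which is 10 of the 54232 genes in the table. All 10 were among the 17509 genes with enough reads to test. The 12 male mice were C57Bl/6J littermates of 10 weeks, kept on chow and fasted for 4 h, and every mouse carried both floxed alleles of *Marchf6*, the gene of a ubiquitin ligase of the endoplasmic reticulum. The 6 controls (WT) had the genotype Marchf6 fl/fl AlbuminCre-, and the 6 knockouts (LKO) had Marchf6 fl/fl AlbuminCre+, in which the albumin promoter drives Cre in hepatocytes. The study describes the knockout as specific to hepatocytes, and deletion in other liver cells was not examined here. The floxed exon is called exon 2 in the series description and exon 3 in the results of the study. Whole liver mRNA was sequenced, with 1 library per mouse and 14860414 to 22111926 counted reads per library. In the library names WT precede LKO, so genotype and library order cannot be told apart.

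Hepcidin, the product of *Hamp*, is a peptide hormone that hepatocytes secrete when iron is plentiful or during inflammation, and it closes ferroportin, the iron exporter encoded by *Slc40a1*. Iron raises *Hamp* transcription through bone morphogenetic protein (BMP) ligands from the sinusoidal endothelium and SMAD factors in the hepatocyte, with HFE, transferrin receptor 2 and hemojuvelin as partners of the receptors. Inflammation raises it through interleukin 6 and STAT3. The transferrin receptor and the ferritin chains are controlled mainly after transcription, when iron regulatory proteins bind iron responsive elements in their mRNAs.

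The iron responsive elements are shown because an mRNA that holds one can respond to iron without a change in transcription. An element was searched as a C, any 5 bases, the loop CAGTGN with a last base other than G, and 5 bases that pair with the 5 before the loop, on the principal GENCODE M21 transcript of each gene (GRCm38). The pattern was found 7 times in 4 of the 10 mRNAs, and in 195 of 21901 principal transcripts of all genes (0.89%). Other transcripts and looser forms of the pattern were not searched, so the lack of a match does not show that an element is absent. Capitals mark the 6 bases of the loop, and each stretch is 30 bases of the mRNA, 5′ to 3′.
Fth1 5′ UTR: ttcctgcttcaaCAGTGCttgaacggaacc
Ftl1 5′ UTR: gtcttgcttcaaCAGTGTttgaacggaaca
Slc40a1 5′ UTR: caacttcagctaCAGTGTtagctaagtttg
Tfrc 3′ UTR, element 1: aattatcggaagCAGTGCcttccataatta
Tfrc 3′ UTR, element 2: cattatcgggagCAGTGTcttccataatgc
Tfrc 3′ UTR, element 3: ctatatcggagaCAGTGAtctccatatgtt
Tfrc 3′ UTR, element 4: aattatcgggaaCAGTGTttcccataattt

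The elements of *Fth1* (chr19:9982732-9982761, plus strand), *Ftl1* (chr7:45459778-45459807, minus strand) and *Slc40a1* (chr1:45925464-45925493, minus strand) lie before the coding region, where a bound regulatory protein blocks translation. The 4 elements of *Tfrc* lie in its 3′ UTR on the plus strand of chromosome 16, at chr16:32631219-32631248, chr16:32631598-32631627, chr16:32631663-32631692 and chr16:32631710-32631739, where binding protects the mRNA from decay. Read counts reach the decay of *Tfrc* mRNA but not the translation of the other 3 mRNAs.

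**Figure D1:**
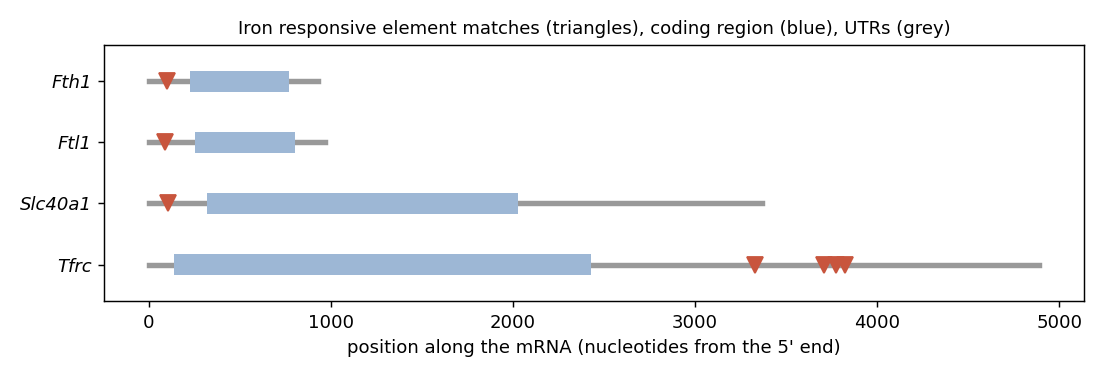
Position of each iron responsive element match (triangle) along the mRNA, in nucleotides from the 5′ end, for the 4 genes that hold the pattern, with the coding region in blue and the untranslated regions in grey. The matches of *Fth1*, *Ftl1* and *Slc40a1* lie before the coding region and the 4 of *Tfrc* after it.

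The *Hamp* promoter is shown beside that of its copy *Hamp2* because reads of the copy were set against those of *Hamp* within each liver. Mouse *Hamp2* lies on the same strand of chromosome 7 and encodes a related peptide. Both stretches are 60 bases from the RefSeq promoter table (GRCm38.p6, minus strand), with a BMP response element core (GGCGCC) and a STAT3 site (TTCTTGGAA) in capitals where present.
Hamp: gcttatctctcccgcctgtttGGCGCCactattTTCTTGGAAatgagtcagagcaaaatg
Hamp2: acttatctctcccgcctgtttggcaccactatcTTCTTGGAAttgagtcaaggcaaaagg

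The *Hamp* stretch is chr7:30944100-30944159, from 130 to 71 bases upstream of the start, and the *Hamp2* stretch is chr7:30924249-30924308, from 127 to 68 bases upstream. They differ at 7 of 60 positions, which counted from 1 at the 5′ end with the *Hamp* base first are G1A, G25A, T33C, A43T, G51A, A52G and T59G. G25A falls in the BMP core, so the letters GGCGCC are present in *Hamp*, starting 109 bases upstream, and not in this stretch of *Hamp2*. Searched on both strands of the 250 upstream bases of 32851 promoters, GGCGCC was present in 9.59% and TTCTTGGAA in 0.365%. These matches describe the letters only. The principal transcripts of *Hamp* (410 bases) and *Hamp2* (437 bases) were identical at 388 of 437 alignment columns (88.8%). Gap columns are counted there as differences, so the share is higher where both transcripts have a base. Of the 50-base windows of *Hamp*, 16.6% also occurred in *Hamp2*, so some reads of the paired genes could not be told apart.

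None of the 10 genes differed between LKO and WT livers at an adjusted p under 0.05 in edgeR's quasi-likelihood test (0 of 10), where 0.428% of all genes tested did (75 of 17509). At an unadjusted p under 0.05 there was 1 of 10, against 11.7% of all genes. The differences were small: 7 genes had a positive and 3 a negative log2 fold change, the median was 0.08 beside 0.00016 over all genes, and all 10 lay between -0.17 and 0.29. The 95% interval of each of the 10 genes lay within 1 log2 unit of 0, the widest reach being from -0.53 for *Slc39a14* to 0.69 for *Hamp*. Changes up to those bounds were not excluded by these livers.

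**Figure D2:**
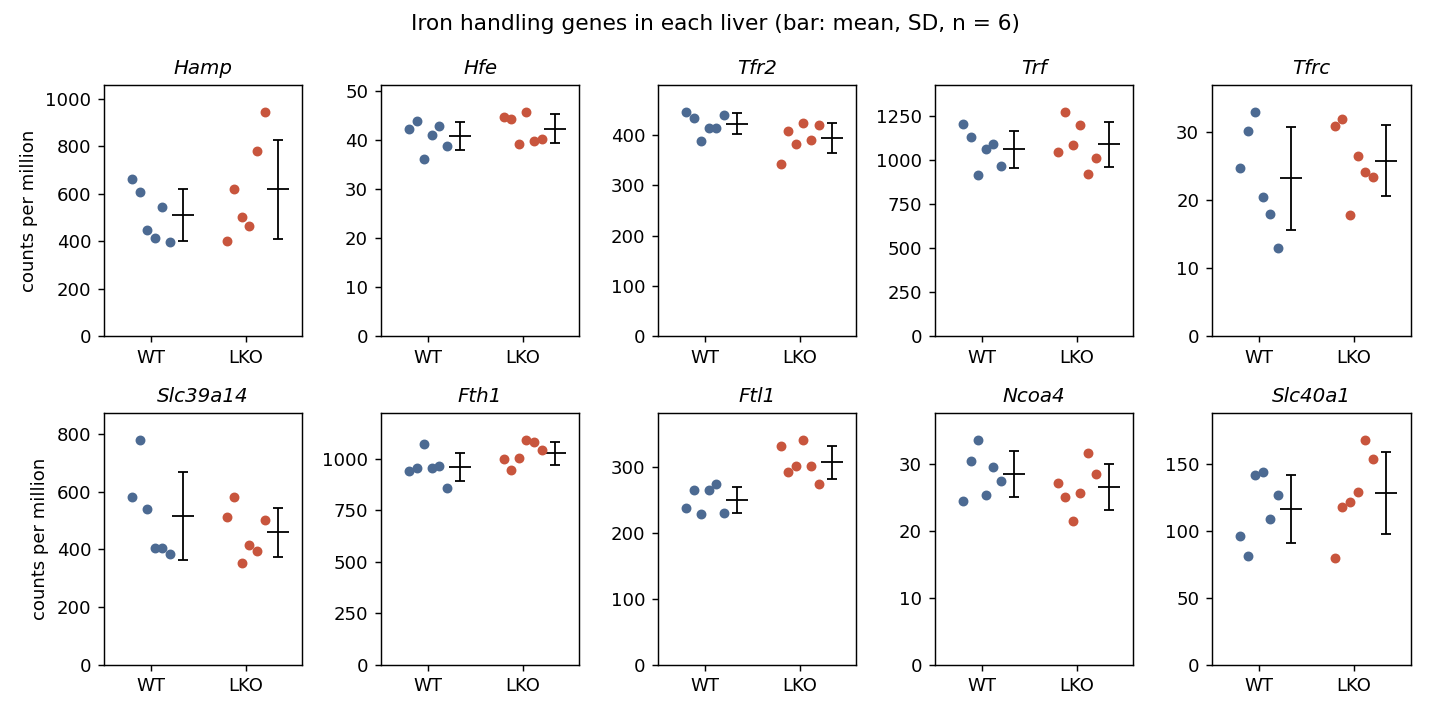
Library-scaled read counts (CPM, counts scaled to a library of 1000000 reads) of the 10 iron handling genes in each liver (points, 6 WT and 6 LKO), with the mean and SD of each group beside them, on axes that start at 0. The groups overlap in every panel except that of *Ftl1*, where the highest WT liver is at 273.6 and the lowest LKO liver at 273.7 CPM.

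Levels were compared between genes per length, as CPM per kb of the principal transcript. In WT livers *Hamp* was the highest at 1247 ± 264 CPM per kb (SD, n = 6), followed by the ferritin heavy chain *Fth1* at 1032 ± 73.7. These neighbours did not differ beyond their spread. *Trf* (412 ± 41.3), *Ftl1* (259 ± 20.4) and *Tfr2* (137 ± 6.96) came next, then *Slc39a14* (105 ± 31.0), whose range reached that of *Tfr2*. *Slc40a1* was at 34.6 ± 7.55 and *Hfe* at 11.4 ± 0.80 CPM per kb. The lowest were *Ncoa4* (7.01 ± 0.83) and *Tfrc* (4.76 ± 1.55), which also lay within their spread of each other. The order was the same in LKO livers. The levels of *Ftl1*, *Trf* and *Ncoa4* are uncertain, because 78.9%, 79.8% and 43.1% of the 50-base windows of their transcripts also occurred in other annotated genes, and reads that match several genes may not have been counted.

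*Hamp* read counts lay between 6136 and 18095 per liver. The level was 398 CPM in the lowest WT liver, 495 at the median and 661 in the highest. Among LKO livers it was 402 in the lowest, 561 at the median and 945 in the highest. The groups started at the same level, and LKO replicates 5 (778 CPM) and 6 (945 CPM) exceeded every WT liver, while 3 of 6 LKO livers were above the WT mean. The log2 fold change was 0.27 ± 0.20 (SE) with an adjusted p of 0.628 (edgeR), and the 95% interval of the fold ran from 0.905 to 1.62. Without LKO replicate 6 the log2 fold change was 0.11, and without LKO replicate 1 it was 0.37. The coefficient of variation was 21.2% in WT and 33.6% in LKO livers, where counting error alone would give 1.00%.

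The genes of partners that read iron for hepcidin varied little. *Hfe*, whose protein binds transferrin receptors beside the BMP receptors, ranged from 36.3 to 43.8 CPM in WT livers (median 41.6) and from 39.1 to 45.8 CPM in LKO livers (median 42.3). The log2 fold change of *Hfe* was 0.05, with a 95% interval from -0.09 to 0.19. *Tfr2*, the receptor of hepatocytes that senses iron-loaded transferrin, ranged from 388 to 445 CPM in WT livers (median 424) and from 343 to 423 CPM in LKO livers (median 397). The *Tfr2* range was shifted down in LKO, with 2 LKO livers below every WT liver, but the log2 fold change of -0.10 ± 0.06 (SE) did not pass (adjusted p 0.577, edgeR). Its interval ran from -0.24 to 0.04.

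The uptake genes overlapped between the groups. *Trf* encodes transferrin, the iron carrier of plasma made by hepatocytes, and ranged from 913 to 1204 CPM in WT livers (median 1076) and from 920.4 to 1273 CPM in LKO livers (median 1064.5). The log2 fold change of *Trf* was 0.04 ± 0.09 (SE). *Tfrc*, the receptor that takes up iron-loaded transferrin, ranged from 13.0 to 33.0 CPM in WT livers (median 22.6) and from 17.9 to 32.0 CPM in LKO livers (median 25.4). Every LKO value of *Tfrc* lay inside the WT range, and the log2 fold change was 0.15 ± 0.20 (SE, adjusted p 0.824, edgeR). It was 0.03 without WT replicate 6 and 0.28 without WT replicate 3. *Slc39a14*, a transporter for iron that is not bound to transferrin, ranged from 383 to 779 CPM in WT livers (median 473) and from 352 to 580.4 CPM in LKO livers (median 458). WT replicate 2 was the highest of the 12 livers for *Slc39a14*, whose log2 fold change was -0.17 ± 0.17 (SE), and -0.014 without that liver.

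Storage genes gave the only member whose groups did not overlap. *Ftl1*, the light chain of ferritin, ranged from 229 to 273.6 CPM in WT livers (median 251) and from 273.7 to 341 CPM in LKO livers (median 302). All 6 LKO livers thus lay above all 6 WT livers, by a margin of under 1 CPM at the nearest pair, and 1.3% of all genes tested separated the groups in either direction. The log2 fold change was 0.29 ± 0.07 (SE), a fold of 1.23 with a 95% interval from 1.10 to 1.36, with an unadjusted p of 0.000984 and an adjusted p of 0.0931 in edgeR, so it missed the threshold. *Ftl1* ranked 185 of 17509 genes by p. DESeq2 on the same counts gave 0.29 with an adjusted p of 0.00969, and over all alternatives tried the adjusted p ran from 0.00969 to 0.196.

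Summing *Ftl1* with copies that share windows with it changed its value little, as far as reads were counted. The 5 copies summed (*Ftl1-ps1*, *Gm15590*, *Ftl2-ps*, *Ftl1-ps2* and *Gm12164*) held at most 3.09% of the summed reads in a liver, and the sum of all 6 genes gave a log2 fold change of 0.29 ± 0.07 (SE, adjusted p 0.0911, edgeR).

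*Fth1*, the heavy chain that oxidises iron for storage, ranged from 859 to 1073 CPM in WT livers (median 956) and from 945 to 1091 CPM in LKO livers (median 1023). Its log2 fold change was 0.10 ± 0.07 (SE), with 5 of 6 LKO livers above the WT mean and an adjusted p of 0.587 (edgeR). *Ncoa4*, the receptor that carries ferritin to the lysosome so that its iron is released, ranged from 24.5 to 33.6 CPM in WT livers (median 28.6) and from 21.5 to 31.7 CPM in LKO livers (median 26.4). The log2 fold change of *Ncoa4* was -0.10 ± 0.10 (SE), and its groups overlapped.

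The ratio of the ferritin chains within a liver removes the scaling between libraries. *Ftl1* reads per *Fth1* read were 0.214 in the lowest WT liver, 0.273 at the median and 0.283 in the highest, and 0.263, 0.305 and 0.331 in LKO livers. The 6 LKO ratios were above the WT mean and 4 of them above every WT liver. The log2 ratio was higher in LKO by 0.19, with an exact two-sided permutation p of 0.0260 and 0.0519 after adjustment over the 4 ratios tested. WT replicate 3 had the lowest ratio, and without it the difference was 0.13.

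Export was described by *Slc40a1*, which ranged from 81.3 to 144 CPM in WT livers (median 118) and from 79.5 to 168 CPM in LKO livers (median 125). The LKO livers held both the lowest and the highest of the 12 values, and the log2 fold change was 0.14 ± 0.17 (SE, adjusted p 0.811, edgeR). It was 0.05 without LKO replicate 5 and 0.24 without LKO replicate 1. Ferroportin is made by Kupffer cells as well as hepatocytes, and whole liver counts do not separate them.

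No marker of another liver cell type passed adjustment (lowest adjusted p 0.103, edgeR), though the signs within some lists were alike. Of the Kupffer cell and macrophage markers, 12 of 12 had a positive log2 fold change, with a median of 0.41. An unadjusted p under 0.05 (edgeR) was found for 10 of 12, and 0 passed adjustment. Over all genes tested, 50.0% were positive, 11.7% had an unadjusted p under 0.05 and 0.428% passed adjustment. Their summed level was 143 to 194.5 CPM in WT and 173 to 301 CPM in LKO livers, with 5 LKO livers above every WT liver, and no marker of the list was below the read filter. *Clec4f*, which marks Kupffer cells, was 45.0 ± 4.32 CPM in WT and 59.1 ± 9.22 CPM in LKO livers. Stellate markers were positive in 7 of 7, endothelial markers in 8 of 9 and erythroid markers in 4 of 5, while hepatocyte markers were negative in 7 of 8 with a median of -0.17. At an unadjusted p under 0.05 (edgeR), 1 of 7 stellate, 1 of 9 endothelial and 1 of 5 erythroid markers were higher in LKO. At the same threshold 3 of 8 hepatocyte markers were lower. The part of these cells in the values of *Ftl1* and *Slc40a1* was not tested. In whole tissue, more cells of a type and more RNA per cell cannot be told apart.

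*Hamp2* gave the largest difference of the hepcidin control list and still did not pass. It was at 4.44 CPM in the lowest WT liver, 7.72 at the median and 39.1 in the highest, and at 19.6, 33.3 and 43.1 CPM in LKO livers. The other 5 WT livers lay at or below 9.36 CPM and every LKO liver above that, so the groups met only through WT replicate 3, which had 615 reads. The log2 fold change was 1.40 ± 0.45 (SE) with a 95% interval from 0.43 to 2.38, an unadjusted p of 0.00768 and an adjusted p of 0.224 (edgeR). Without WT replicate 3 it was 2.24 with an adjusted p of 0.000504, the only alternative of 20 that passed.

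*Hamp2* reads per *Hamp* read showed the same liver. The ratio was 0.00690 in the lowest WT liver, 0.0134 at the median and 0.0872 in the highest (WT replicate 3), and 0.0372, 0.0521 and 0.0828 in LKO livers. The log2 ratio was higher in LKO by 1.58, with an exact two-sided permutation p of 0.0195 and 0.0519 after adjustment over 4 ratios. Without WT replicate 3 the difference was 2.05 with an adjusted exact permutation p of 0.00866. *Hamp2* made up a minor share of hepcidin transcripts in every liver.

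**Figure D3:**
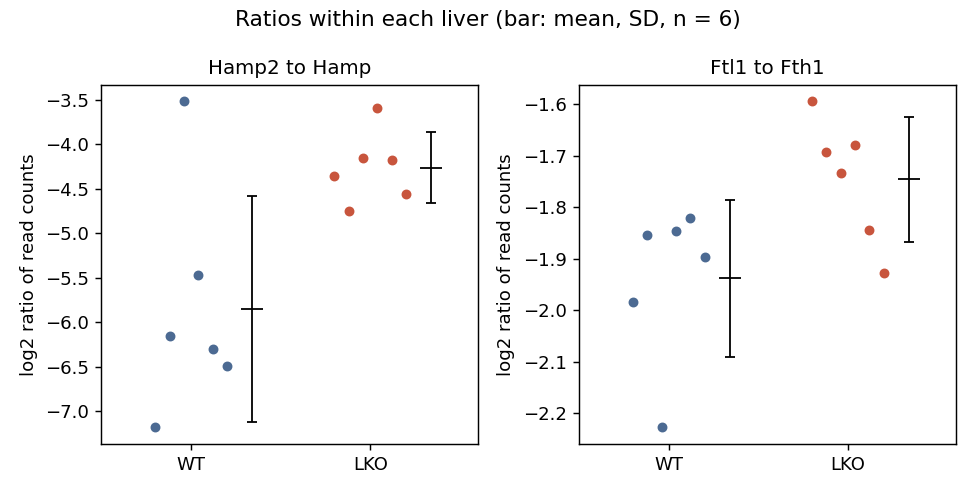
Log2 ratio of read counts within each liver (points, 6 WT and 6 LKO) for *Hamp2* to *Hamp* and *Ftl1* to *Fth1*, with the mean and SD of each group. On the left 5 WT livers lie below all LKO livers and WT replicate 3 lies above them, and on the right 4 LKO livers lie above all WT livers.

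The other ratios also overlapped between the genotypes. *Tfrc* reads per *Tfr2* read differed by 0.30 on the log2 scale (exact permutation p 0.275, adjusted 0.367), and by 0.13 without WT replicate 6 and 0.44 without WT replicate 3. *Hamp* reads per read of *Id1*, a target of BMP and SMAD signalling, differed by -0.08 (exact permutation p 0.859, adjusted 0.859).

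Of the 23 tested genes that set or read out hepcidin transcription, 0 passed adjustment in either direction, with 8 positive and 15 negative log2 fold changes and a median of -0.02. The ligands *Bmp6* (-0.02 ± 0.12, SE) and *Bmp2* (-0.05 ± 0.18) were near 0. The SMAD targets *Id1* (0.30 ± 0.32), *Smad7* (-0.07 ± 0.26), *Smad6* (-0.08 ± 0.18) and *Atoh8* (0.01 ± 0.17) did not share a sign. *Tmprss6*, the protease that cleaves hemojuvelin, was 475 ± 22.0 CPM in WT and 444 ± 39.4 CPM in LKO livers, and hemojuvelin itself (*Hjv*, listed as *Hfe2*) was 95.9 ± 5.83 and 102 ± 11.2 CPM. *Furin*, a protease that matures hepcidin, had a log2 fold change of -0.14 ± 0.06 (SE) and an adjusted p of 0.324 (edgeR). *Erfe*, the erythroid hormone that lowers hepcidin, did not have enough reads to test.

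**Figure D4:**
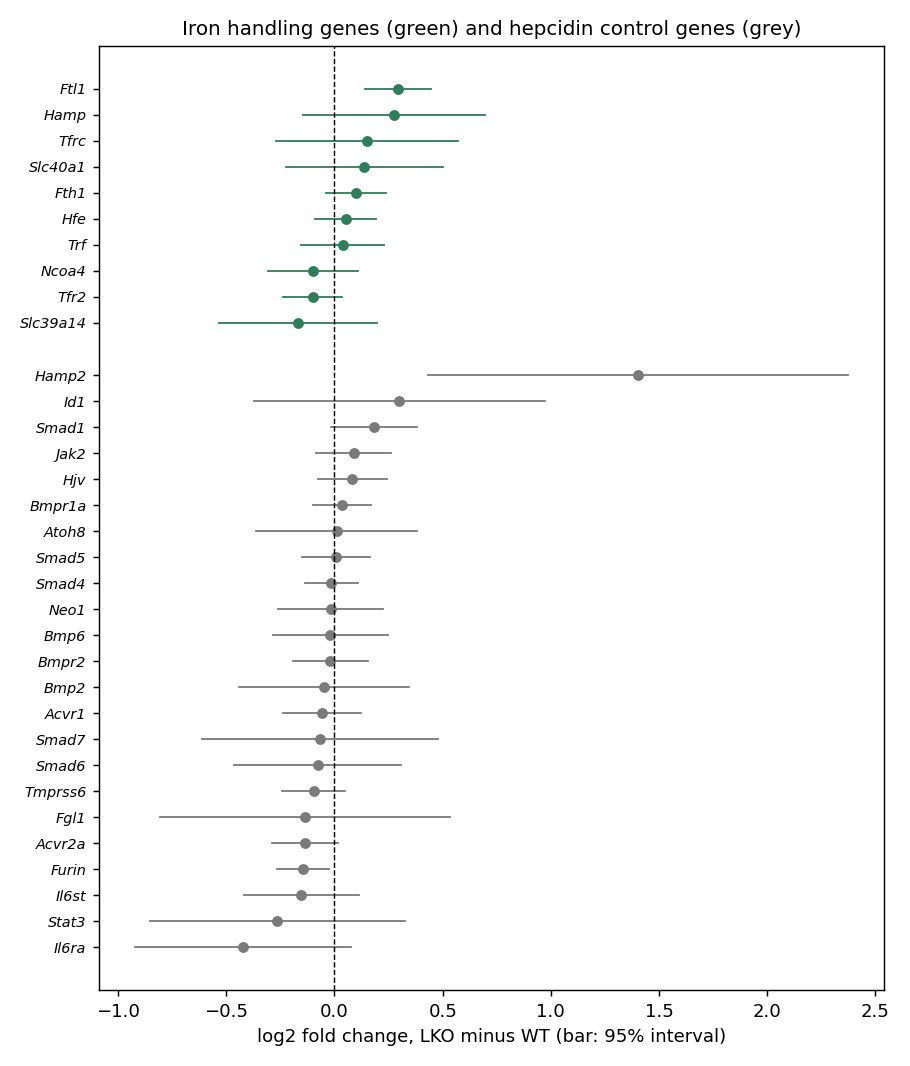
Log2 fold change (LKO minus WT, points) with its 95% interval (bars) for the 10 iron handling genes in green and the 23 tested hepcidin control genes in grey. The intervals of *Ftl1*, *Hamp2* and *Furin* leave out 0, and none of these genes passed adjustment over all genes tested.

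No relation of *Hamp* with genes of its known inputs and readouts passed a test across livers. Over the 12 livers, with each value taken from its genotype mean, Pearson's r of log2 CPM with *Hamp* was 0.02 for *Id1*, 0.35 for *Smad7*, -0.12 for *Smad6*, -0.05 for *Atoh8*, -0.36 for *Bmp6*, 0.12 for *Tfrc*, 0.22 for *Saa1* and -0.01 for *Socs3*. Spearman's rho lay between -0.32 and 0.36. The permutation p of r was at least 0.254 and that of rho at least 0.255, and the adjusted p over 8 relations was 0.973 for r and 0.922 for rho in each case. Leaving out the 2 livers farthest from the median of the other gene changed r for *Socs3* to -0.41 and for *Smad7* to 0.58, and turned its sign for *Atoh8* (0.20) and *Id1* (-0.0063). The sign differed between WT and LKO livers for *Atoh8*, with 0.70 within WT (exact permutation p 0.164) and -0.61 within LKO (exact permutation p 0.189).

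The genes most like *Hamp* in this sense, among 8330 genes with a mean log2 CPM of at least 3, were *Arih2* (r 0.90), *Zfp292* (0.90), *Zfp626* (0.85), *Gpatch2* (0.83) and *Pcsk5* (0.82), over 12 livers. Those most like *Tfrc* were *Wdr3* (0.94), *Clpp* (0.91), *Lurap1l* (0.90), *Rab1a* (0.90) and *Mbd1* (0.89). These values were chosen as the highest of 8330 and describe these livers only. The points share their libraries and depth.

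The iron regulatory proteins, which bind the elements printed above, and the proteins that control them gave no call (0 of 5). All 5 log2 fold changes were negative and small, with *Aco1* at -0.15 ± 0.08 (SE), *Ireb2* at -0.02 ± 0.07 and *Fbxl5*, which targets the second regulatory protein for degradation, at -0.02 ± 0.07. *Herc2*, a ubiquitin ligase, was at -0.07 ± 0.08 and *Ciao1*, an iron-sulfur assembly factor, at -0.02 ± 0.06. Of 15 tested genes of iron import and cytosolic handling, 0 passed. *Slc11a1*, the iron transporter of phagocytes, was 3.87 ± 0.81 CPM in WT and 5.33 ± 1.41 CPM in LKO livers (adjusted p 0.367, edgeR). *Cp*, the ferroxidase ceruloplasmin, had a log2 fold change of -0.16 ± 0.08 (SE), *Slc39a8*, a metal transporter related to *Slc39a14*, -0.18 ± 0.10, and *Slc11a2*, the transporter that moves iron out of endosomes, 0.05 ± 0.15.

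Of 26 genes of heme synthesis and catabolism, 0 passed. The lowest p was that of *Lrp1*, the receptor for heme bound to hemopexin and for lipoprotein remnants, at 1406 to 1840.0 CPM in WT livers (median 1507) and 1084 to 1414 CPM in LKO livers (median 1224). Its log2 fold change was -0.36 ± 0.08 (SE) with an adjusted p of 0.0809 (edgeR), which became 0.00329 in DESeq2 and 0.0473 without WT replicate 3. *Blvrb*, a biliverdin reductase, had 0.23 ± 0.06 (adjusted p 0.143) and *Slc25a37*, the mitochondrial iron importer, 0.26 ± 0.09 (adjusted p 0.288). *Alas1*, the first enzyme of heme synthesis in hepatocytes, varied from 120 to 931 CPM over the 12 livers, and its log2 fold change of 0.52 ± 0.37 (SE) was within that spread. *Hmox1*, which breaks heme down, was 9.45 ± 2.00 CPM in WT and 12.2 ± 5.49 CPM in LKO livers.

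Of 24 genes of iron-sulfur cluster assembly, 0 passed. *Fdx1l* had the largest fold change of the list (1.62 ± 0.53, SE) at no more than 8 reads in any liver. *Isca2*, an assembly factor of mitochondria, had 0.17 ± 0.06 (adjusted p 0.270, edgeR). The acute phase list, which reads the inflammatory input to hepcidin, had 0 of 14 past the threshold and a median of -0.04. *Saa1* varied from 22.4 to 343 CPM over all livers, and its log2 fold change was 0.04 ± 0.71 (SE). *Socs3*, a target of STAT3, had -0.10 ± 0.29. *Itih4* (-0.24 ± 0.15), *Lbp* (0.19 ± 0.14) and *Saa4* (-0.27 ± 0.23) had the lowest p-values of the acute phase list, with adjusted p-values of 0.577, 0.628 and 0.698 (edgeR).

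Over the 6 pathway lists together, 14 of 107 tested genes had an unadjusted p under 0.05 (13.1%), beside 11.7% of all genes tested, and the median log2 fold change was -0.01. The share was uneven over the lists, with 6 of 24 genes of iron-sulfur assembly (5 higher and 1 lower in LKO) and 4 of 26 of heme. The 5 higher genes include *Fdx1l*, at no more than 8 reads in any liver (mean 0.083 CPM in WT and 0.275 CPM in LKO). It was 2 of 15 for import and cytosolic handling and 2 of 23 for hepcidin control. For the iron regulatory protein and acute phase lists it was 0 of 5 and 0 of 14.

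**Figure D5:**
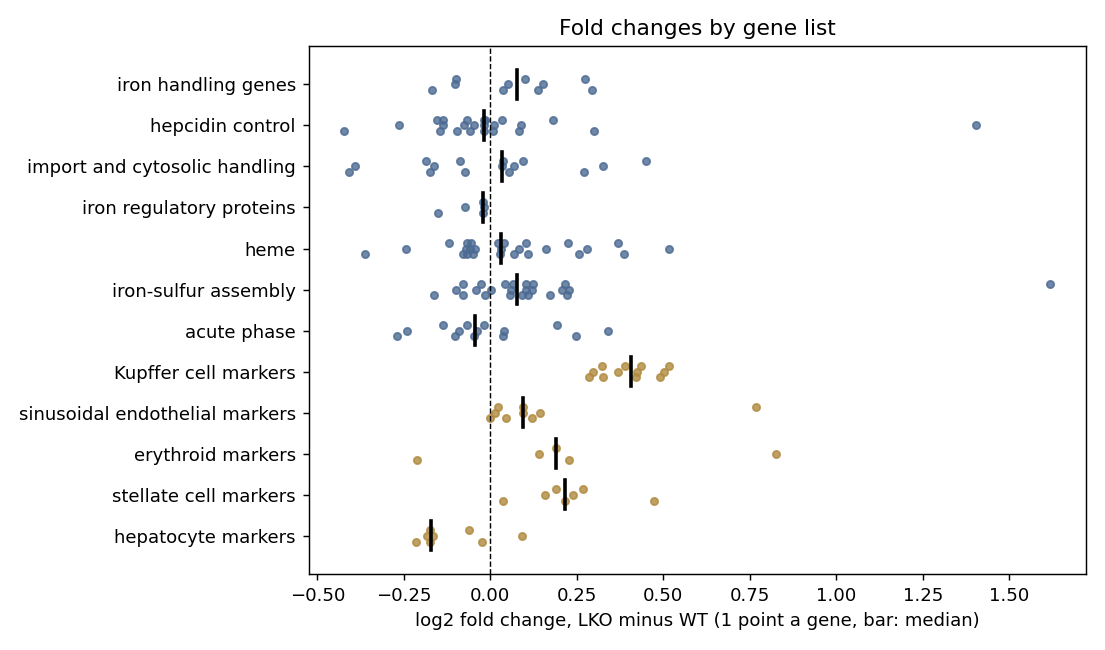
Log2 fold change (LKO minus WT) of every tested gene (points) in the iron handling genes, the 6 pathway lists (blue) and the 5 lists of cell type markers (ochre), with the median of each list as a bar. The pathway medians lie between -0.04 and 0.08, and that of the Kupffer cell markers is at 0.41.

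*Marchf6* itself, listed as *March6*, was 241 ± 8.36 CPM in WT and 226 ± 16.5 CPM in LKO livers (log2 fold change -0.09 ± 0.06, SE, adjusted p 0.585, edgeR). Reads were counted over the whole gene, so this value does not check the deletion of 1 exon or the labels.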

How the data were processed

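Liver mRNA of 6 WT and 6 LKO mice was sequenced. Per the labels and the study's methods, the authors used a KAPA mRNA kit, trimmed the reads with Trimmomatic 0.36, aligned them to GRCm38.p6 with HISAT2 2.1.0 and assigned them to Ensembl genes with HTSeq 0.6.1. The deposited table holds raw read counts, to which no normalization was applied. The strand setting and the handling of reads that match several genes are not given in the sources used here.

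Names and positions came from GENCODE M21, which held 54165 of 54232 identifiers, and the lower of 2 identifiers was used for *Ndor1*. A gene was tested if at least 6 livers had over 2 reads. The main test was edgeR 4.0.16 (R 4.3.3), quasi-likelihood, TMM factors, genotype alone in the model, with p-values adjusted by Benjamini-Hochberg across the tested genes. A standard error is the log2 fold change divided by the root of F, and log2 CPM used a prior count of 0.5. Ratios were compared over all 924 assignments of livers to groups, and relations across livers with 100000 permutations, or all orders within a genotype. With the replicate number as a block, ratios were compared over swaps of livers with the same number. Reads are not independent molecules, so the depth bounds counting error only. No 2 libraries were alike within counting noise.

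The genes, lists and tests were chosen with earlier results of these data known. Named genes are the 10 iron genes, any list gene with an adjusted p under 0.05, a fixed set of iron regulators, up to 3 genes of lowest p in each other list, and the 5 genes most like *Hamp* and *Tfrc*. Outside this rule, *Furin*, *Erfe* and *Clec4f* were picked with their values in view. A gene that the rule names is not reported here. Alternatives were RLE and upper-quartile scaling, scaling without the 20 most abundant genes, no filter, at least 10 reads in every liver, limma voom (3.58.1), DESeq2 (1.42.0), a block for the replicate number, and each liver left out. Summing *Ftl1* with its copies was added after seeing the data. The main test was first checked on simulated counts. It recovered 39% of 100 genes set to a log2 change of 0.5 and 89% of 100 genes set to 1, and called 7 unchanged genes. Smaller changes, like those of the 10 iron genes, were not simulated.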

Additional observations from a re-analysis of the deposited data

Results flagged for a closer look

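Among 30 groups of 6 livers (the 10 iron handling genes, *Hamp2* and the 4 ratios, in each genotype), 1 held a liver whose gap to its nearest neighbour exceeded Dixon's 95% critical share of the group's range, where chance gives about 1.5. This was *Hamp2* in WT replicate 3, the highest of the WT livers, with a share of 0.658 on the log2 CPM scale. The liver stood at 39.1 CPM beside at most 9.36 CPM in the other 5 WT livers. Its *Hamp* level of 448 CPM lay inside the WT range. The cause was not tested.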

How the results depend on the processing

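The count of genes past the threshold was 75, and became 350 in DESeq2, 114 without a filter, and 38 (without WT replicate 5) to 132 (without WT replicate 3) when a liver was left out. Of the 10 iron handling genes, DESeq2 called 1, *Ftl1*, at 0.29 (adjusted p 0.00969), and no other alternative called any. *Trf* turned sign at -0.0023 and -0.0099, its range without a liver being -0.0099 to 0.083, without WT replicate 3 or LKO replicate 2. DESeq2 called 2 heme genes in place of 0, and leaving out a liver called 0 to 1 in the hepcidin control list and in the heme list, each without WT replicate 3. The *Ftl1* to *Fth1* difference lay between 0.13 and 0.23 when a liver was left out (adjusted p 0.0433 without LKO replicate 6, up to 0.126), and that of *Hamp2* to *Hamp* between 1.32 and 2.05, passing without WT replicate 3 alone. *Hamp* to *Id1* ranged from -0.31 to 0.20 and turned sign without WT replicate 2, LKO replicate 3 or LKO replicate 5. The causes were not tested. Against r over the 12 livers, the r of *Hamp* turned sign with *Id1* within LKO (from 0.02 to -0.025) and *Tfrc* within LKO (from 0.12 to -0.19). It also turned with *Atoh8* within WT (from -0.05 to 0.70) and *Socs3* within WT (from -0.01 to 0.12). The labels do not say whether the replicate numbers pair the mice. Same-numbered livers of the 2 genotypes deviated together with r from -0.22 to 0.44. Of the WT livers, 0 of 6 correlated best with the LKO liver of their own number. These values do not settle whether the numbers carry a pairing. With the number as a block, 97 genes passed and 0 of the 10. The *Hamp2* to *Hamp* difference of 1.58 then had an adjusted permutation p of 0.25. That test swapped only livers of the same number, which leaves far fewer assignments than 924. A ratio alone at its smallest possible p could not have passed 0.05 after adjustment over the ratios. The value of 0.25 therefore does not show whether the difference weakens with pairing. Of the genes named, *Fdx1l* had at most 8 reads in a liver, so its fold change rests on few reads.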

Other observations

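Some of the 10 iron handling genes varied together from liver to liver within a genotype. Over 12 livers, with each value taken from its genotype mean, the highest Pearson's r of log2 CPM were those of *Tfrc* with *Slc39a14* (0.81), *Trf* with *Hfe* (0.77) and *Ftl1* with *Hfe* (0.71). The lowest were those of *Slc40a1* with *Hfe* (-0.66), *Trf* with *Ncoa4* (-0.61) and *Slc40a1* with *Slc39a14* (-0.54). The points share libraries and depth, the pairs were picked as the extremes of all pairs of the 10 genes, and no test was made.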
